A study of Homo sapiens with 6 samples.

Results

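TOP mRNAs carry a terminal oligopyrimidine tract, an unbroken run of pyrimidines that begins with a C at the capped 5′ end. Most of them encode ribosomal proteins or other parts of the translation machinery, and their translation follows the activity of the kinase complex mTORC1, with the protein LARP1 binding the cap and the tract when mTORC1 is inactive. The 6 mRNAs described here are known TOP mRNAs without an RPL or RPS name: TPT1, NPM1, NAP1L1, GNB2L1, PABPC1 and FAU. The rule that picks them uses these symbols and no measured value, and they stood among 8121 genes with a translational efficiency and 9570 transcripts with a ribosome occupancy per codon. All 6 had an efficiency, 5 of them under the listed symbol and GNB2L1 under its current symbol RACK1, which was matched as a RefSeq synonym. Of these, 5 had a row in the table of occupancy, and the occupancy of NAP1L1 was not analysed here.

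The samples were HEK293 cells, an established human embryonic kidney line, labelled as treated with control siRNA, and all were in DMEM with serum and L-glutamine. Ribosome profiling sequences the fragments of mRNA that ribosomes protect from RNase I (ribosome protected fragments, RPFs). From each lysate a part was kept as total RNA, which gave 3 RPF libraries and 3 total RNA libraries. There was a single condition, so that every comparison here is between genes, and the mTORC1 pathway was not perturbed. Cells were exposed to cycloheximide, a blocker of elongation, before lysis. The labels do not say whether the 3 replicates were separate cultures, so that the p-values may measure technical spread only. The values in both tables are relative to RNA, and the identity of the line was not checked from markers.

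The translational efficiency (TE) is the authors' ratio of RPFs to total RNA for a gene in each replicate, and the sources used here do not state how gene length entered it. The median TE was 0.382, 0.38 and 0.388 in replicates 1 to 3, and the median over genes of the SD between replicates was 0.10 on the log2 scale. Depth per library is not known from this table. Occupancy is the authors' count of in-frame RPFs at a codon, normalised for library size and for the TPM of the mRNA, with the replicates combined, so that no single occupancy value here has a replicate error. The smallest values of a transcript are multiples of what a read is worth in each replicate, and this gave an estimate of the reads behind a profile.

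The products of these mRNAs fall into 3 kinds. FAU encodes a ubiquitin-like protein fused to the small subunit protein eS30, and GNB2L1 encodes RACK1, a scaffold of WD repeats on the head of the small subunit, so that both give a component of the ribosome. PABPC1 is the cytoplasmic poly(A) binding protein, which joins the poly(A) tail to the initiation factors at the cap. NPM1 is a nucleolar histone chaperone with a part in ribosome biogenesis, NAP1L1 is a chaperone of histones H2A and H2B, and TPT1 is the translationally controlled tumour protein, a small and abundant cytoplasmic protein. The genes lie on chromosome 5 at 170814120 to 170838814 on the plus strand (NPM1) and 180663897 to 180675096 on the minus strand (GNB2L1) of GRCh37. On the minus strand of the same build lie TPT1 on chromosome 13 at 45907606 to 45915419, NAP1L1 on chromosome 12 at 76430365 to 76478515 and FAU on chromosome 11 at 64888102 to 64889649. PABPC1 is on the minus strand of chromosome 8 at 101698044 to 101735037.

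The tract that gives these mRNAs their name was looked for at the annotated transcription starts of RefSeq (GRCh38.p14), where 6 starts of 5 genes were used. The start of PABPC1 was not analysed here. Counted as tract-like was a first base C followed without a break by pyrimidines (C or T), at least 5 bases in all.

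Each line below shows 30 bases of the genome, 10 before the annotated start and 20 from it on, with the pyrimidine run from the first transcribed base in capitals, to let the tracts be compared.
TPT1: ctgagtcggcCTTTTCCgcccgctcccccc
NPM1, start 1: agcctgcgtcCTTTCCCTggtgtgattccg
NPM1, start 2: agctctcttagggcgatgtccttgctaatt
NAP1L1: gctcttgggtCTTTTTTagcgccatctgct
GNB2L1: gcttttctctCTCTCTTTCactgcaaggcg
FAU: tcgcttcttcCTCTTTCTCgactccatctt

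The shown bases are chr13:45341164-45341193 (TPT1), chr5:171387839-171387868 and chr5:171387106-171387135 (the 2 starts of NPM1), chr12:76084666-76084695 (NAP1L1), chr5:181243887-181243916 (GNB2L1) and chr11:65122115-65122144 (FAU). All 5 of these genes had a tract-like start. The run was 9 bases long in GNB2L1 and in FAU, 8 in NPM1 and 7 in TPT1 and NAP1L1, and the second annotated start of NPM1 began with G and had no run. Such starts were 4.07% of all 35116 starts in the table (1429). They were 47 of 82 among ribosomal protein genes and 11 of 14 among other non-ribosomal TOP mRNAs, and 1 of 21 among genes of proteins that bind TOP mRNAs or act in mTORC1 signalling. An annotated start is not a start measured in these cells.

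All 6 are known TOP mRNAs, and yet their TE differed widely. NPM1 had a TE of 4.39, 4.21 and 4.55 in replicates 1 to 3, the highest of the 6, and GNB2L1 the lowest with 0.275, 0.282 and 0.268. TE was 1.94, 1.69 and 1.91 for PABPC1. It was 1.39, 1.48 and 1.56 for TPT1. The values of these last 2 mRNAs lay close together and did not overlap. NAP1L1 had 0.487, 0.537 and 0.573, and FAU had 0.330, 0.368 and 0.387, with NAP1L1 above the median of all genes and FAU close to it. As means ± SD (n = 3), the order was NPM1 with 4.39 ± 0.170, PABPC1 with 1.85 ± 0.137, TPT1 with 1.48 ± 0.0825, NAP1L1 with 0.532 ± 0.0435, FAU with 0.362 ± 0.0293 and GNB2L1 with 0.275 ± 0.0070. NPM1 stood above 97.2% of all genes, PABPC1 above 90.4% and TPT1 above 87.6%. NAP1L1 stood above 62%, FAU above 47.5% and GNB2L1 above 36.7%. Deviations from a gene's own mean were small, and TPT1, NAP1L1 and FAU shared their direction, lowest in replicate 1 and highest in replicate 3.

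**Figure D1:**
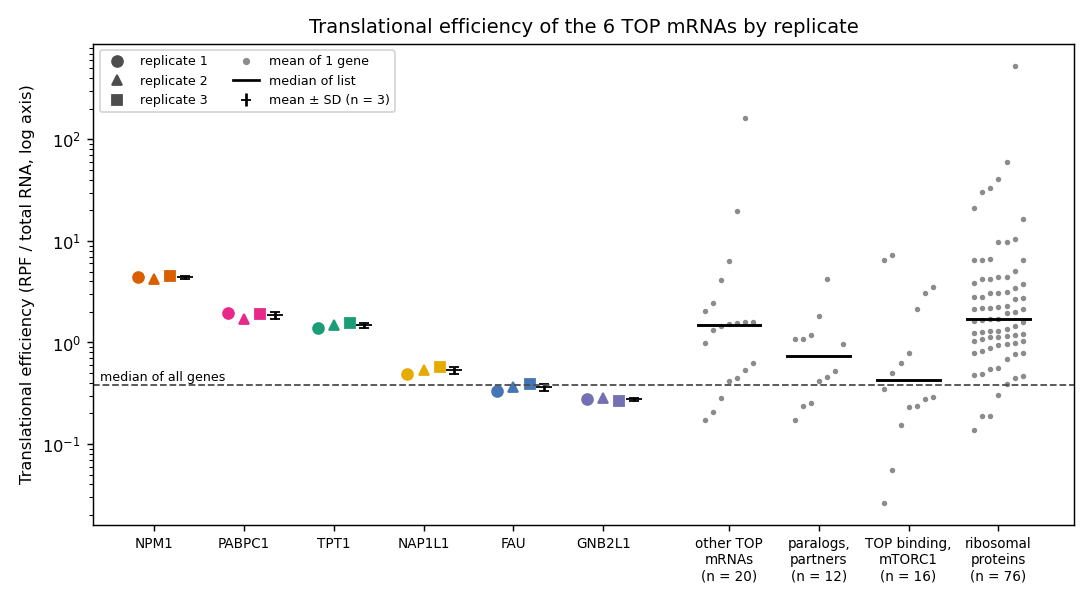
TE (ratio of RPFs to total RNA, log axis) of the 6 TOP mRNAs in replicates 1, 2 and 3 (circle, triangle, square) with the mean ± SD at the right of each gene, beside the mean TE of each gene in 4 gene lists (grey points, median as a line) and the median of all genes (dashed). The members fall from 4.39 for NPM1 to 0.275 for GNB2L1, and the replicates of a gene lie much closer together than the genes do.

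To ask which members depart from the typical mRNA, TE was compared with the median of all genes on the scale of log2(TE + 0.01), with limma and Benjamini-Hochberg adjustment over all genes. NPM1 was higher by 3.48 (95% interval 3.35 to 3.62, adjusted p = 1.2e-06), PABPC1 by 2.24 (2.07 to 2.40, adjusted p = 3.6e-06) and TPT1 by 1.92 (1.77 to 2.06, adjusted p = 4.0e-06). NAP1L1 was higher by 0.46 (0.29 to 0.63, adjusted p = 0.00131). FAU differed by -0.08 (-0.25 to 0.08, adjusted p = 0.262) and was not called. GNB2L1 was lower, with a difference of -0.46 (-0.59 to -0.34, adjusted p = 0.000422). Thus 4 of 6 were called higher and 1 lower. Against a single reference with replicates this close most genes pass the test, and 44.7% of all genes were called higher and 44.6% lower, so that the size of a difference says more here than its call.

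The ribosomal protein mRNAs are the main body of TOP mRNAs, and 76 of them had a TE. Their median was 1.71, with quartiles of 0.976 and 3.95. Against the median of all genes 71 were called higher and 4 lower (93.4% and 5.26%, with 44.7% and 44.6% over all genes). Against the ribosomal protein median NPM1 was higher by 1.33 on the log2(TE + 0.01) scale (adjusted p = 4.0e-06), where 8.79% of all genes were called higher. TPT1 was lower, with a difference of -0.23 (-0.38 to -0.09, adjusted p = 0.00966). PABPC1 differed by 0.08 (-0.08 to 0.24, adjusted p = 0.245) and was not called. NAP1L1 (-1.69), FAU (-2.24) and GNB2L1 (-2.62) were lower, with a highest adjusted p of 3.6e-06. A call as lower was common, with 88.3% of all genes. The place of TPT1 and PABPC1 rested on which ribosomal protein genes were used: against the 22 of them with less than 50% shared sequence (median TE 1.00) TPT1 was higher by 0.55 and PABPC1 by 0.87. With that reference NPM1 was higher by 2.11, and NAP1L1 (-0.91), FAU (-1.45) and GNB2L1 (-1.83) were still called lower. In order of mean TE, 59 of the 76 ribosomal protein genes lay below NPM1, 39 below PABPC1 and 34 below TPT1. Below NAP1L1 lay 9, below FAU 4 and below GNB2L1 3, so that the mRNAs of the 2 ribosome components were near the bottom of the ribosomal protein genes.

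**Figure D2:**
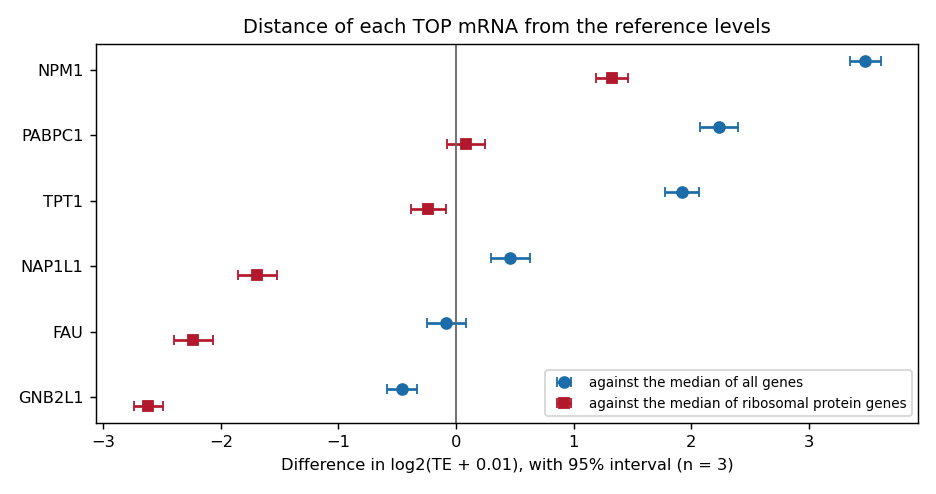
Difference of each TOP mRNA from the median of all genes (blue circles) and from the median of ribosomal protein genes (red squares) in log2(TE + 0.01), with 95% intervals from limma (n = 3). Only the interval of FAU holds 0 among the blue symbols and only that of PABPC1 among the red ones.

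Neighbours in the order of TE were then compared within replicates. NPM1 exceeded PABPC1 by 2.26-fold, 2.49-fold and 2.38-fold in replicates 1 to 3. PABPC1 exceeded TPT1 by 1.39-fold, 1.14-fold and 1.22-fold, the closest pair. TPT1 was higher than NAP1L1 by 2.86-fold, 2.76-fold and 2.72-fold. For NAP1L1 over FAU the ratios were 1.48, 1.46 and 1.48, and for FAU over GNB2L1 they were 1.20, 1.30 and 1.44. In none of the 5 pairs did the replicates overlap. On the log2(TE + 0.01) scale the difference was 0.32 (95% interval 0.13 to 0.51) for PABPC1 over TPT1 and 0.38 (0.20 to 0.56) for FAU over GNB2L1, and the highest adjusted p of the 5 pairs was 0.00406 (limma). In these fits the lower neighbour's own error enters every gene. An exact two-sided permutation test of 3 values against 3 gave p = 0.1 for each pair, the smallest it can give. Of all genes, 7.8% were called higher than PABPC1, 10.5% higher than TPT1, 32.7% higher than NAP1L1, 45.7% higher than FAU and 57.3% higher than GNB2L1.

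The efficiency of several members has to be read with their sequence. Processed pseudogenes and paralogs hold copies of these mRNAs, and RPFs from shared stretches cannot be assigned to a single gene by sequence alone. The words counted here have the length of RPFs and not of total RNA reads. Which of the copies were in the authors' mapping reference is not stated. Of the 30-base words in the CDS, 91.2% of those of NPM1 also occurred in an annotated transcript of another gene (55 such genes). The share was 52.2% for TPT1, 49.3% for PABPC1, 46.8% for NAP1L1 and 40% for FAU, where the other gene with most shared words was the pseudogene FAUP1. It was 3.25% for GNB2L1. Counting protein-coding genes only, 44.2% remained for NPM1 and 28.5% for PABPC1, and 0% for the other members. The member with the highest TE was thus also the one with the most shared sequence and the member with the lowest TE the one with the least. The part of shared sequence in these values was not tested.

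Other TOP mRNAs outside the ribosomal proteins had mean TE values from 0.173 to 162, a wider range than that of the members. Of 22 listed genes 20 were measured, with a median TE of 1.49. Against the median of all genes 16 were called higher and 3 lower (80% and 15%, with 44.7% and 44.6% over all genes). The highest were EEF1B2, a subunit of the elongation factor that recharges eEF1A with GTP, with 148, 124 and 213, and the splicing regulator HNRNPA1, with a mean of 19.8. Of their 30-base words 86.4% and 89.7% were shared. Among the lowest was EIF3G, a subunit of initiation factor 3, with 0.206. The extremes among ribosomal protein genes included RPL7A with a mean of 530 (89.3% shared) at the top and RPL8 with 0.188 and RPLP0 with 0.137 (21.8% and 83.4% shared) at the bottom. Of the 20 other TOP genes, 17 lay below NPM1, 14 below PABPC1 and 10 below TPT1, and 5, 3 and 2 below NAP1L1, FAU and GNB2L1.

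The genes of TOP mRNA binding proteins and of mTORC1 signalling, which include LARP1, were close to all genes as a list. All 16 were measured, with a median TE of 0.426 against 0.385 for all genes. Of these, 8 were called higher and 7 lower (50% and 43.75%, with 44.7% and 44.6% over all genes). The cap binding factor EIF4E had a mean TE of 7.25 (88.4% shared words) and PCBP1, a poly(C) binding protein, 6.49 (3.95% shared). The kinase RPS6KB2, which phosphorylates ribosomal protein S6, had 0.0549, and MLST8, a subunit of both mTOR complexes, 0.0264.

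Paralogs and partners of the members were measured for 12 of 13 genes, with a median TE of 0.741. Against the median of all genes 8 were called higher and 3 lower (66.7% and 25%, with 44.7% and 44.6% over all genes). PABPC4, the other main cytoplasmic poly(A) binding protein and itself a TOP mRNA, had 0.414, 0.466 and 0.374, all below the 1.69 to 1.94 of PABPC1, and was not called (adjusted p = 0.195, limma). The nuclear poly(A) binding protein PABPN1 had 0.234, and the PABPC1 partners PAIP1 and PAIP2 had 0.526 and 1.07. NPM3, a relative of NPM1 with no shared words, had 1.08, and SET, a histone chaperone of the NAP1L1 family, had 1.17. The G protein subunit GNB1, a WD repeat protein like GNB2L1, had 0.956, while GNB2 had 0.240, 0.260 and 0.267, just below all 3 values of GNB2L1. RPS27A, which like FAU encodes a fusion to a small subunit protein, had 4.26 with 96.6% shared words, against 0.362 for FAU. The polyubiquitin gene UBB had 0.462. The differences between members and paralogs were not tested.

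The occupancy of the coding sequence, which is per codon and per mRNA, gave another order. The mean over codons was 0.215 for TPT1 (173 codons with the stop codon), 0.159 for PABPC1 (637 codons), 0.133 for NPM1 (295 codons), 0.0468 for GNB2L1 (318 codons) and 0.0452 for FAU (134 codons). These stood above 95.8%, 92.7%, 89.9%, 52.0% and 50.3% of all transcripts. Of the transcripts with at least 10000 reads they stood above 87.2%, 79.5%, 73.2%, 16.0% and 14.6%, and the median of those was 0.0838. TPT1 was first here, before PABPC1 and NPM1, while GNB2L1 and FAU were lowest in both. The TPT1 transcript behind this profile has a 3′UTR of 1309 codons, against 24 to 156 in the other members with one. TPM is scaled by transcript length, and the effect of this long 3′UTR on the place of TPT1 was not tested. The median of the 71 ribosomal protein transcripts was 0.0742 and that of 17 other TOP mRNAs was 0.0682, both between FAU and NPM1, and that of all transcripts was 0.0450. The estimated reads in the CDS were 351160 for NPM1, 244181 for GNB2L1, 69246 for PABPC1, 34548 for TPT1 and 27454 for FAU, so that counting error is small: the 95% Poisson interval of the lowest of these, FAU, was 0.0447 to 0.0458. Intervals from reads cover counting error only.

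The worth of a read also gives the mRNA level behind each profile, as a fold of the median transcript. This level is an estimate of the authors' TPM for the profiled transcript. GNB2L1 mRNA was at 179 times that level, NPM1 at 97.5 times, FAU at 47.7 times, TPT1 at 10.4 times and PABPC1 at 7.44 times. The ribosomal protein transcripts had a median of 86.2 times. The 2 ribosome components thus had abundant mRNA with an occupancy per mRNA near the median of all transcripts. Their occupancy was below that of most transcripts with at least 10000 reads. TPT1 and PABPC1 had less mRNA with a high occupancy. NPM1 had both, with the second highest mRNA level of the 5 and an occupancy above 89.9% of transcripts. The mRNA level is the divisor of the occupancy, so the 2 are not independent. For all 5 mRNAs both rest on a TPM. The share of 30-base words shared with other genes ran from 3.25% in GNB2L1 to 91.2% in NPM1. The part of shared sequence in these levels, and that of the long 3′UTR of TPT1, was not tested.

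**Figure D3:**
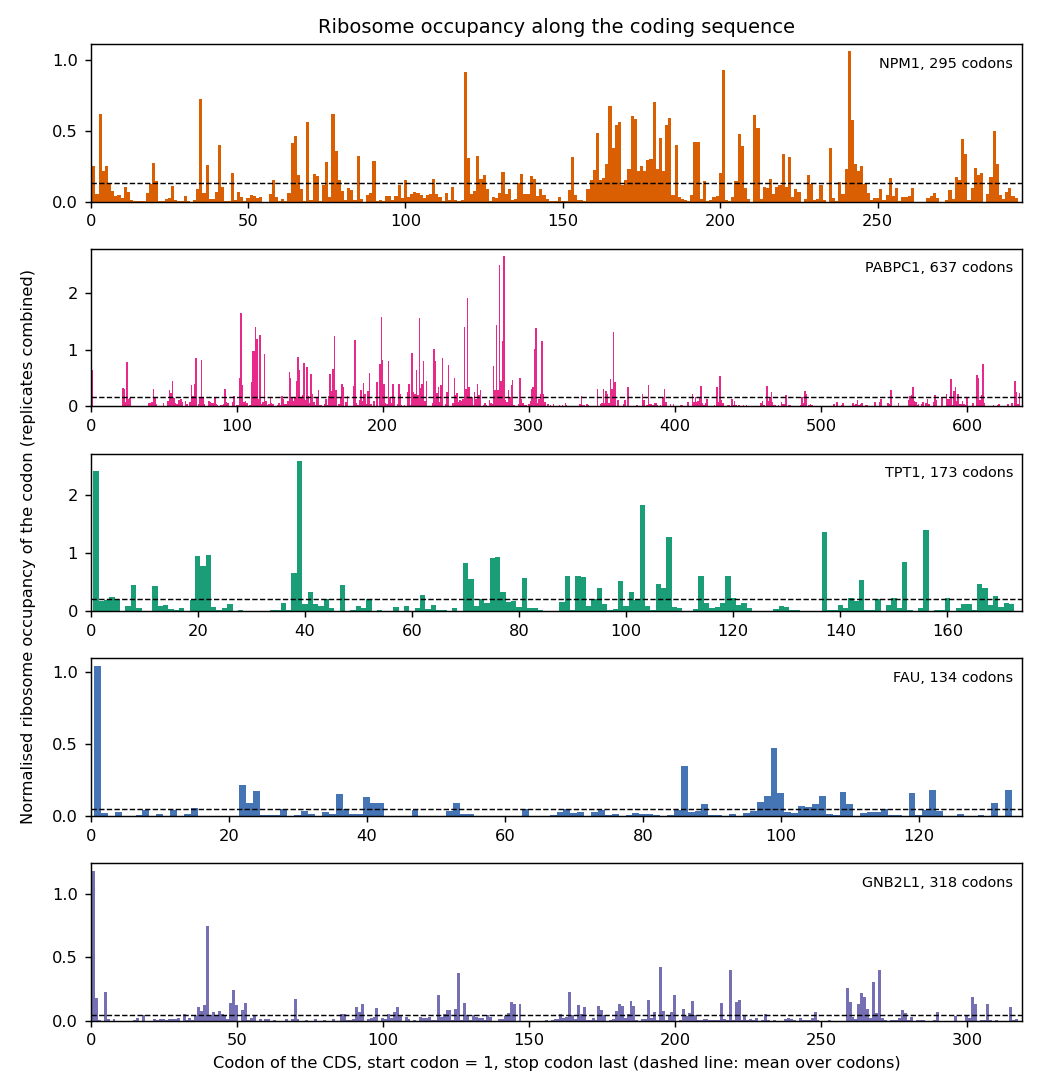
Normalised ribosome occupancy of each CDS codon (authors' value, replicates combined) for the 5 TOP mRNAs with a profile, from the start codon to the stop codon, with the mean over codons dashed. The start codon is the highest codon of FAU and GNB2L1 and the second highest of TPT1, while NPM1 has a broad block between codons 158 and 187 and the highest codons of PABPC1 lie before the midpoint of its CDS.

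The start codon was prominent in 3 of the mRNAs. Its occupancy was 25.3 times the CDS mean in GNB2L1, 23.1 times in FAU and 11.2 times in TPT1, above 98.5%, 98.2% and 94.6% of all transcripts. It was 4.07 times the mean in PABPC1 and 1.90 times in NPM1. The median was 0.873 times for ribosomal protein transcripts, 0.586 for other TOP mRNAs and 0.286 for all transcripts. The 1259 transcripts with at least 10000 reads, a depth that all 5 members pass, also had a median of 0.586. All 5 members lay above each of these medians. In FAU the start codon alone held 17.2% of the CDS occupancy. The first 30-base word of the FAU CDS also occurs in another gene, and the part of this in the value was not tested.

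Single codons after the start codon reached 12 times the CDS mean in TPT1, 16.0 times in GNB2L1 and 10.5 times in FAU. The top 5% of codons, start codon included, held 36.9% of the CDS occupancy in TPT1, 38.9% in GNB2L1 and 43.1% in FAU. The median was 42.0% over all transcripts and 37.3% over those with at least 10000 reads. Of the latter, TPT1 lay above 46.0%, GNB2L1 above 63.2% and FAU above 85.1%. By the share of the single highest codon, TPT1 lay above 79.0% of them, GNB2L1 above 84.4% and FAU above 98.2%. That codon is the start codon in GNB2L1 and FAU, so their shares do not describe later codons. The lines below show the highest codon after the start codon in each, in capitals, with 4 codons on either side.
TPT1, codon 39: atggtcagtaggACAgaaggtaacatt
GNB2L1, codon 40: cgagataagaccATCatcatgtggaaa
FAU, codon 99: aaacaggagaagAAGaagaagaagaca

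Codon 39 of TPT1 had an occupancy of 2.58, slightly over its start codon (2.42) and 12 times the CDS mean, and codon 103 followed with 1.84. In GNB2L1 the start codon had 1.18, codon 40 had 0.748 (16.0 times the mean) and codon 195 had 0.424. In FAU the start codon had 1.04, codon 99 had 0.474 (10.5 times the mean) and codon 86 had 0.348. The 30-base word around codon 86 is shared with another gene, and that around codon 99 is not. Codon 99 of FAU lies within a row of AAG codons, and the 30 neighbouring codons with the highest sum in FAU, codons 86 to 115, held 8 of its 14 AAA or AAG codons and 37.3% of its CDS occupancy. These 30 are 22.4% of its codons, with a mean 1.67 times that of the CDS. Outside codons 86 to 115 the 6 other AAA or AAG codons had a mean of 0.0119 against 0.0381 for the rest. The stretch was picked for its high sum, and a link of occupancy to AAA or AAG codons was not tested. These peaks were named by rank and have no replicate error.

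NPM1 was different, with a profile spread over many codons. Its top 5% of codons held 26.2% of the CDS occupancy, a lower share than in all but 0.376% of transcripts. Its highest codons were 241 (1.06), 201 (0.926) and 119 (0.915), and the 30-base word around each of these is shared with another gene. The 30 neighbouring codons with the highest sum, 158 to 187, are 10.2% of its codons and held 25.0% of the occupancy, with a mean 2.46 times that of the CDS. Of these 30 codons 25 were GAA, GAC, GAG or GAT, the codons of the acidic residues glutamate and aspartate, and NPM1 is known for an acidic tract in its centre. The 10 codons in the middle of the block, 168 to 177, are shown as all of them begin with GA.
NPM1, codons 168 to 177: gatgaagaggatgatgatgaagatgatgat

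Over the whole CDS the 65 codons of NPM1 that begin with GA had a mean occupancy of 0.188 against 0.118 for the others. Outside the block the 40 remaining ones had 0.0912 against 0.115. The block was picked for its high sum and holds 25 of the 65, so that choice partly fixes a lower mean outside it. A link of occupancy to these codons was not tested. All of the block's codons lie in sequence shared with other genes, and the part of this in the block was not tested. The block was described after its values had been seen.

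PABPC1 carried most of its occupancy before the midpoint of the coding sequence. The codons before the midpoint held 78.1% of the CDS occupancy, more than in 97.6% of all transcripts and in 98.7% of the 1259 deep ones, whose median was 50.6%. Divided into 10 equal stretches, stretches 2 to 5 held 15.2%, 15.9%, 20.6% and 21.3%, and stretches 6 to 9 between 2.71% and 5.89% each. The end stretches were low too, with 5.07% in stretch 1 and 6.41% in stretch 10. The highest codons were 283 (2.66), 280 (2.51) and 258 (1.91), and the 30 codons 255 to 284, none of them in shared sequence, held 15.5%. Shared words were more frequent after the midpoint (62.9%) than before it (35.8%), and their part in the fall was not tested. The other members were more even, with 50.6% before the midpoint for TPT1, 49.9% for GNB2L1, 45.2% for FAU and 37.7% for NPM1, which lay above 15.8% of transcripts and whose block of codons 158 to 187 lies after the midpoint.

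**Figure D4:**
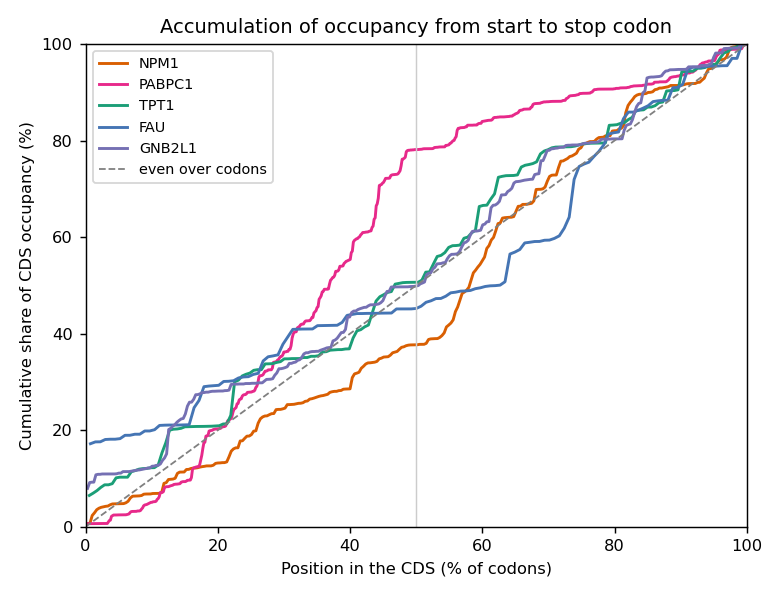
Cumulative share of CDS occupancy (%) from the start codon along the codons (% of the CDS) for 5 TOP mRNAs, with an even spread as a dashed line. PABPC1 reaches 78.1% at the middle of the CDS and NPM1 37.7%, and FAU begins with a step of 17.2% at its start codon.

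Upstream of the start codon, in its frame, FAU and PABPC1 stood apart from the other members. The 5′UTR held 3.08% of the summed occupancy of FAU, above 95% of the deep transcripts, and 1.37% of that of PABPC1, above 86.4%. In GNB2L1 it held 0.280%, in TPT1 0.170% and in NPM1 0.138%, against a median of 0.166% in deep transcripts and 0.0621% in ribosomal protein transcripts. From the estimated reads, the share of FAU was 3.06% (exact 95% binomial interval 2.86 to 3.27) and that of PABPC1 1.37% (1.29 to 1.46). The 3′UTR held at most 0.122% in any of the 5.

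In FAU a single codon, 12 before the start codon, held 55.7% of the 5′UTR occupancy, with a value of 0.107, or 2.37 times the CDS mean, and codon 13 before the start held another 17.9%. These codons begin at bases 18 and 15 of the mRNA counted from the annotated RefSeq start. They are the last 6 bases of the FAU sequence shown above, a few bases after the tract. With the 13 nt offset, RPFs counted at these codons would begin within the tract, close to that annotated start. No in-frame stop codon lies between these codons and the start codon. In PABPC1 the occupancy lay further away, at 50 (0.469), 58 (0.219) and 54 (0.157) codons before the start codon, the first of these 2.96 times the CDS mean. The nearest in-frame stop codon lies 48 codons before the start, so that these peaks were upstream of it and in no open frame that runs into the CDS, and only 8.65% of the 5′UTR occupancy lay after that stop codon. No in-frame ATG was found in the 5′UTR of any of the 5 in the GENCODE transcripts, which for TPT1, NPM1 and FAU are shorter than the 5′UTR in the table. In GNB2L1, TPT1 and NPM1 the 5′UTR peaks were small, at most 0.322 times the CDS mean, and the highest lay 1, 1 and 3 codons before the start codon.

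**Figure D5:**
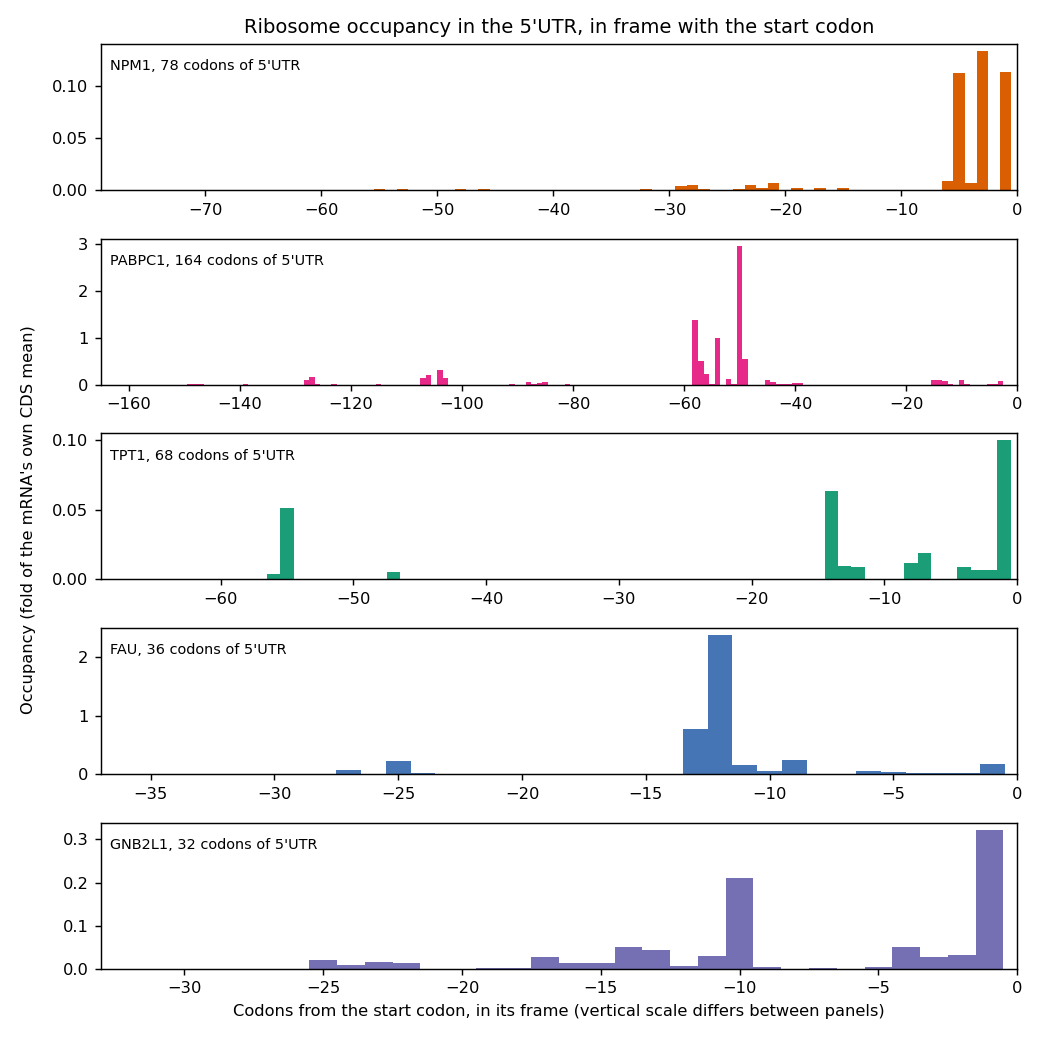
Occupancy in the 5′UTR, in frame with the start codon, as a fold of the same mRNA's CDS mean, by codons from the start codon (vertical scale differs between panels). Peaks over the CDS mean are seen only in FAU, 12 codons before the start, and in PABPC1, 50 and 58 codons before it.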

How the data were processed

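RPF and total RNA libraries were prepared from the same lysates of HEK293 cells (3 of each). The authors trimmed adapters (Cutadapt), collapsed PCR duplicates (cd-hit-dup), discarded rRNA and tRNA reads and mapped RPFs of 28 to 30 nt to hg19 transcripts (bowtie), with a 13 nt offset to the codon. For total RNA they used Hisat2 and HTSeq-count and calculated TPM. The submitters' processing notes name cutadapt 1.16, Bowtie 1.1.2, TopHat2 2.1.1 and HTSeq 0.9.1. The deposited TE values are a ratio, not on a log scale, of RPFs over total RNA per replicate. The sources used here state neither its formula nor what was done with reads that match several places. The deposited occupancy table holds normalised RPF counts per codon with the replicates combined, and 31 broken lines were rejoined.

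For TE, limma (version 3.58.1, R version 4.3.3) was run on log2(TE + 0.01) without a filter, against the median of all genes or of ribosomal protein genes, or against a neighbouring member within replicates, with Benjamini-Hochberg adjustment over all genes at an FDR of 0.05. Since an RPF library and the total RNA library of the same number share a lysate (study methods), the deposited ratio already contains the pairing. Reads were recovered from the 3 smallest steps of the low occupancy values for 9426 of 9570 transcripts, and the mRNA level was taken as the inverse of the mean step. Codons and shared words were taken from the GENCODE 44 annotation on GRCh37 (hg19). Starts came from RefSeq on GRCh38.p14. Python 3.11.15, pandas 2.3.3, numpy 2.4.6 and scipy 1.17.1 were used.

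The members, the gene lists and the tests were chosen with earlier results of these data known. All members were described. Of each gene list, the 2 genes of highest and the 2 of lowest mean TE were named, with every measured paralog or partner, and the 3 highest CDS codons of each member. The values of some genes that this rule names are not reported here. Alternatives were other pseudocounts, a filter on low TE, other ribosomal protein references, a replicate block, leaving out each replicate, other codon summaries, 28-base words and, added after the data had been seen, an exact permutation test.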

Additional observations from a re-analysis of the deposited data

How the results depend on the processing

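Over all alternatives the calls against the median of all genes held for each of the 6 members. Without one replicate at a time 3528 to 3552 genes were called higher and 3470 to 3539 lower, and FAU, not called, ranged from -0.12 to -0.02. With a replicate block, which centres each replicate, 3639 genes were called higher and 3626 lower, and no member or list changed its call. The fits without the pairing of replicates kept the calls of all 5 neighbouring pairs, with TPT1 over NAP1L1 at 1.46 and PABPC1 over TPT1 at 0.32. In the exact permutation test, chosen after the data had been seen, none of the differences of 1.25, 0.32, 1.46, 0.54 and 0.38 (in the order of TE) can pass with 3 values a group. The choice of ribosomal protein reference changed the call of 2 members. With large subunit genes only, TPT1 was at -0.11 (no longer called) and PABPC1 at 0.21 (called). With small subunit genes PABPC1 was at -0.041 (not called). With ribosomal protein genes of under 50% shared words TPT1 turned to 0.55 and PABPC1 was at 0.87, both called, and NPM1 (2.11), NAP1L1 (-0.91), FAU (-1.45) and GNB2L1 (-1.83) moved by the same amount with no change of call.

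The CDS mean depended on the summary of codons. Without the first 15 and last 5 codons it was 0.210 for TPT1, 0.135 for NPM1, 0.0440 for GNB2L1, 0.161 for PABPC1 and 0.0396 for FAU, and without the highest codon it was 0.202, 0.130, 0.0432, 0.155 and 0.0377 in the same order. As a median over codons it was 0.0731, 0.0574, 0.0119, 0.0416 and 0.0121, where NPM1 passed PABPC1 and FAU passed GNB2L1. With 28-base words the shared share was 57.5% for TPT1, 51.0% for NAP1L1 and 53.3% for PABPC1. With protein-coding genes only it was 0% for TPT1, NAP1L1, GNB2L1 and FAU, 44.2% for NPM1 and 28.5% for PABPC1. The codons before the midpoint of FAU held 35.3% without its first 15 and last 5 codons. Depth limits the UTR values most, with about 60 estimated reads in the 5′UTR of TPT1 (95% interval of its share 0.132% to 0.223%), 7 in the 3′UTR of PABPC1 and 16 in that of GNB2L1.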
